A study of Mus musculus with 70 samples.

Results

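The 40 genes described here are 17 genes of DNA replication and 23 genes of mitosis, read in splenic dendritic cells and monocytes of diabetes-prone NOD mice and control mice. The members are the genes named in these lists, a rule that reads no measured value, although the lists were drawn up with earlier results of these data known, and all 40 were among the 24429 genes of the expression table. The replication members were Cdc6, Cdt1, Mcm2, Mcm3, Mcm4, Mcm5, Mcm6, Mcm7, Pcna, Rrm1, Rrm2, Tyms, Ccne1, Ccne2, E2f1, Gmnn and Uhrf1. The mitotic members were Mki67, Top2a, Ccna2, Ccnb1, Ccnb2, Cdk1, Plk1, Aurka, Aurkb, Bub1, Bub1b, Mad2l1, Cdc20, Birc5, Kif11, Kif20a, Tpx2, Foxm1, Cenpa, Ube2c, Cdca8, Nusap1 and Prc1.

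RNA was sequenced from plasmacytoid dendritic cells (pDC), monocytes, dendritic cells derived from monocytes (moDC) and both classes of conventional dendritic cells (cDC1 and cDC2), sorted from spleens of mice aged 8 to 10 weeks, 5 hours after an intraperitoneal injection of PBS. The strain under study was NOD and its control was B6g7, named C57BL/6.g7 by the submitters, which by the usual meaning of that name carries the g7 major histocompatibility haplotype of NOD on a C57BL/6 background. A second set came from Rag1-deficient mice, which make no mature B or T cells, with NOD Rag1-/- set against B6 Rag1-/-, a control not labelled g7. Of the 70 libraries, 47 were Rag-sufficient. In cDC1 and in cDC2 each strain had 6, in moDC NOD had 5 and B6g7 had 6, and in pDC and in monocytes each strain had 3. The other 23 were Rag1-/-, with 3 NOD Rag1-/- and 3 B6 Rag1-/- libraries of cDC1, cDC2 and pDC, and 3 and 2 of moDC. Totals ran between 14.7 and 20.6 M counts in the Rag1-/- libraries and between 12.8 and 19.7 M in the Rag-sufficient ones. The labels do not say whether libraries of a group came from separate mice or pools, so the p-values measure the spread between these samples.

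Before a cell divides, the origin recognition complex, Cdc6 and Cdt1 load the MCM helicase onto DNA, geminin (Gmnn) then blocks a second loading, and PCNA holds the polymerases on the template. Cyclins with their kinases drive the entry into mitosis, and the spindle checkpoint, with Bub1b and Mad2l1, holds back the Cdc20-bound anaphase-promoting complex until every chromosome is attached. In the spleen, conventional dendritic cells arise from precursors that still divide in the tissue, whereas pDC and monocytes reach the spleen mostly after their last division. In bulk samples, fewer cycling cells and less RNA of these genes per cell cannot be told apart.

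The promoters are shown first because the members fall into groups by known cell cycle elements. Windows of 250 bases before to 50 bases after the start were on hand for 32 members in RefSeq on GRCm38.p6, the C57BL/6J reference. The windows of Ccnb2 and Bub1b stand for mitotic genes and those of Mcm3 and Mcm5 for replication genes, and Bub1b and Mcm3 are also members on which the strain comparison turns. They lie at chr9:70421505-70421804 on the minus strand for Ccnb2, chr2:118597961-118598260 on the plus strand for Bub1b, chr1:20820263-20820562 on the minus strand for Mcm3 and chr8:75109259-75109558 on the plus strand for Mcm5. Each is printed 5′ to 3′ along the gene, and capitals mark, on either strand, TTTGAA (the core of the cell cycle genes homology region, or CHR), CCAAT (the NF-Y box) or 1 of 4 E2F octamers.
Ccnb2: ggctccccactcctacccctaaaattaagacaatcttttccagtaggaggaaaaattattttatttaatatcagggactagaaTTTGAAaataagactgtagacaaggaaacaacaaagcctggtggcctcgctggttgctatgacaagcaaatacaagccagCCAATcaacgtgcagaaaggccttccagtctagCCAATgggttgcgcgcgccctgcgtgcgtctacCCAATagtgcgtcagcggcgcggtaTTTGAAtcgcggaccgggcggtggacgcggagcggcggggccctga
Bub1b: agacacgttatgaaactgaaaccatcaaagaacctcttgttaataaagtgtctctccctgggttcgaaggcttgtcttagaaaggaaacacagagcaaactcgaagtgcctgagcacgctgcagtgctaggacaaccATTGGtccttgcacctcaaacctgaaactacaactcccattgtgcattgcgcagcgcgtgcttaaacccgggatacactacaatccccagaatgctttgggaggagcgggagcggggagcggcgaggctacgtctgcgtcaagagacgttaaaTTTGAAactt
Mcm3: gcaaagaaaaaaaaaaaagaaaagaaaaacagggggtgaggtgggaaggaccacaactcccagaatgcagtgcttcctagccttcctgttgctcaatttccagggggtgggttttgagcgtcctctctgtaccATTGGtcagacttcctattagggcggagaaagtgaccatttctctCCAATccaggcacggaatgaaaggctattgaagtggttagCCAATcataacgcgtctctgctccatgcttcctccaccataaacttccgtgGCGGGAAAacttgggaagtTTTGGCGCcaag
Mcm5: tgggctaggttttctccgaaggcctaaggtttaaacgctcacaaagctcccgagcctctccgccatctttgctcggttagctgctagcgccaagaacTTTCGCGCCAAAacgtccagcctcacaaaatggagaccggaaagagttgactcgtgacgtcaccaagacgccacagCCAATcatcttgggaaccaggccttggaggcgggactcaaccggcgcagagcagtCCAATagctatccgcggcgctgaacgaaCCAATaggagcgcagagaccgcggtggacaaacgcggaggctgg
The E2F octamers searched were TTTGGCGC, TTTCCCGC, TTTGCCGC and TTTCGCGC, and in the Mcm5 window both of its octamer matches overlap each other. The Ccnb2 window holds 2 CHR matches and 3 CCAAT boxes, and that of Bub1b holds 1 of each, with no E2F octamer in either. The Mcm3 and Mcm5 windows each hold 3 CCAAT boxes and 2 E2F octamers, with no CHR match.

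Across all members with a window, TTTGAA was present in 13 of 18 mitotic promoters (72.2%) and in 1 of 14 replication promoters (7.14%), against 18.1% of 27025 promoter windows of the mouse. An E2F octamer was present in 1 of 18 mitotic promoters (5.56%) and in 6 of 14 replication promoters (42.9%), against 2.32% of all windows. CCAAT was present in 83.3% of mitotic and 64.3% of replication promoters, against 37.9% of all windows. These matches are descriptions of the letters in the windows and were not read as bound sites.

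**Figure D1:**
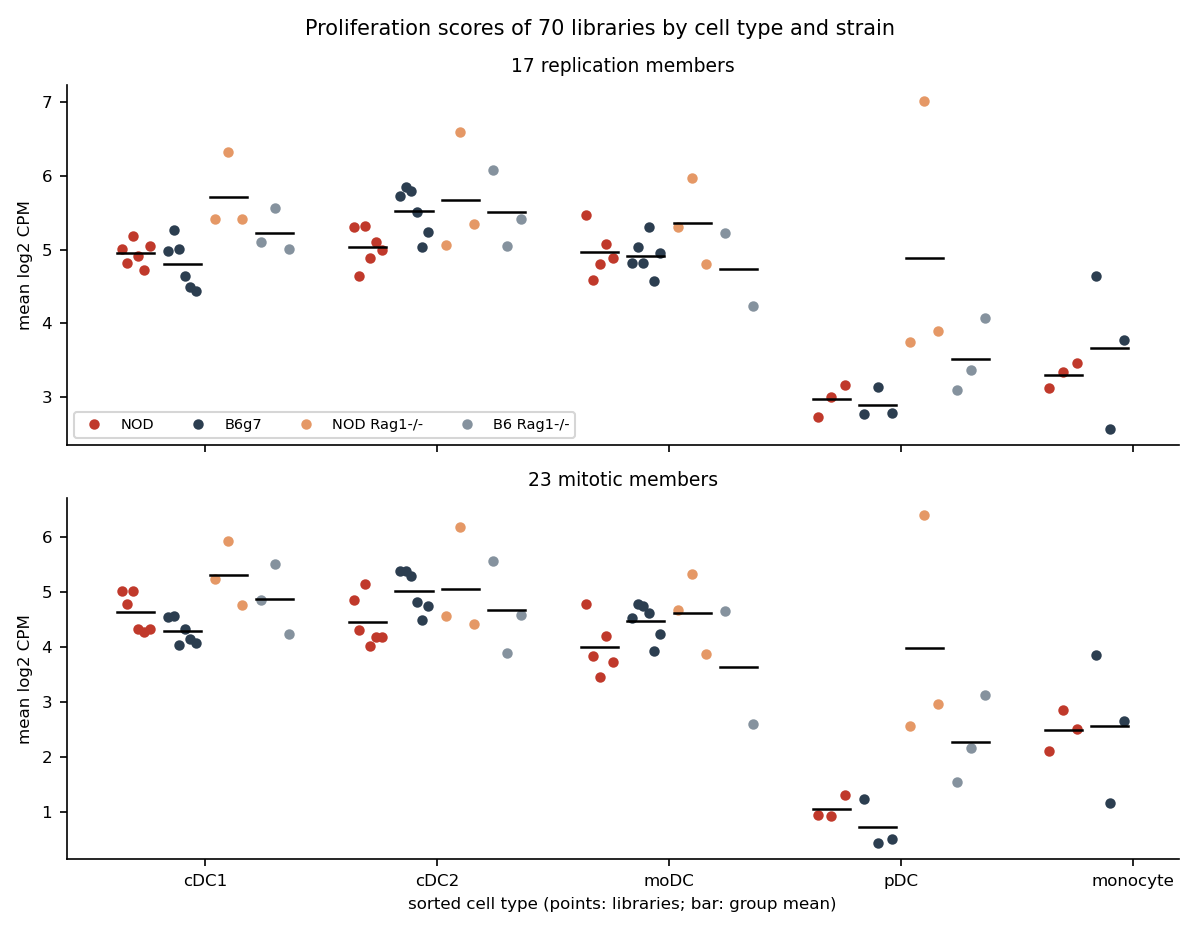
Mean log2 CPM of the 17 replication members (upper panel) and of the 23 mitotic members (lower panel) in each of the 70 libraries, by cell type and strain; each point is 1 library and the bar is the group mean. Most Rag-sufficient pDC and monocyte libraries lie below those of the other cell types. The lowest replication score (2.56) is that of a monocyte B6g7 library and the lowest mitotic score (0.45) that of a pDC B6g7 library, and a single pDC NOD Rag1-/- library lies at 7.02 and 6.40.

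Levels are CPM (each count divided by its library's total in M) after TMM scaling over all 70 libraries, and the score of a list averages log2 CPM (prior count of 2) over its members. In Rag-sufficient mice the replication score averaged 5.04 in cDC2 NOD, 5.53 in cDC2 B6g7, 4.95 in cDC1 NOD, 4.80 in cDC1 B6g7, 4.96 in moDC NOD and 4.92 in moDC B6g7. It averaged 3.3 in monocytes of NOD and 3.66 in those of B6g7, and 2.96 in pDC of NOD and 2.89 in those of B6g7. The mitotic score was lower still in pDC, at 1.06 in NOD and 0.732 in B6g7, against 4.45 in cDC2 NOD and 5.02 in cDC2 B6g7. All 40 members passed the filter on low counts in each model (at least 1 CPM in at least 3 libraries).

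The sorted cells were checked against marker lists. The summed level of 10 pDC markers lay between 8730 and 42100 CPM in pDC libraries and at or below 641 CPM elsewhere, and that of 10 cDC1 markers lay between 7810 and 13600 CPM in cDC1 libraries and at or below 5040 CPM elsewhere. That of 10 monocyte and macrophage markers lay between 51900 and 68700 CPM in monocytes, between 6510 and 22300 CPM in moDC, for which there was no list, and at or below 22800 CPM elsewhere. The list of 10 cDC2 markers did not set the cDC2 sort apart: it summed to 1710 to 3440 CPM in cDC2 libraries, above the 250 to 963 CPM of cDC1, but to 2200 to 5290 CPM in moDC, 3290 to 3560 CPM in monocytes and 1960 to 5020 CPM in pDC. Markers of other cells were also present, and in several groups they moved with strain; their values stand beside the results below.

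Mki67, the proliferation antigen Ki-67, had a lowest, median and highest level of 47.6, 63 and 106 CPM in cDC2 NOD and of 60.3, 88.4 and 103 CPM in cDC2 B6g7. In cDC1 it ranged between 48.1 and 59.7 CPM in NOD and between 27 and 59 CPM in B6g7. Monocytes had 13, 16.8 and 14.7 CPM in NOD and 31.7, 6.76 and 15.4 CPM in B6g7. In pDC it was 2.97, 5.64 and 3.65 CPM in NOD and 3.10, 1.48 and 3.4 CPM in B6g7. The 6 pDC libraries were all below every conventional dendritic cell library, and the strains overlapped in each of these cell types.

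The members differed in how far their group means ranged over the 18 groups. E2f1 ranged least, with 29.6 CPM in its highest group (pDC NOD Rag1-/-) and 13.3 CPM in its lowest (cDC2 NOD), a ratio of 2.23. Pcna had the highest level of any member, with a mean of 263 CPM in cDC2 B6g7 and 67.6 CPM in monocytes of NOD. Tyms, thymidylate synthase, had 66.7 CPM in cDC2 B6g7 and 4.78 CPM in monocytes of NOD, a ratio of 14.0. The table counts a pseudogene copy, Tyms-ps, apart, so the split of reads between the copies is uncertain. Cdk1 had 56.4 CPM in cDC1 NOD and 2.86 CPM in monocytes of NOD, and Birc5, survivin of the chromosomal passenger complex, had 82.9 CPM in cDC2 B6g7 and 1.95 CPM in pDC B6g7. Uhrf1 had 45.5 CPM in cDC2 B6 Rag1-/- and 0.947 CPM in pDC NOD. Rrm2 had 130 CPM in pDC NOD Rag1-/- and 1.62 CPM in pDC B6g7, and that highest mean rests on 1 library, described below. For 20 of the 23 mitotic members the lowest group was pDC of NOD or of B6g7.

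Against cDC2, 2 of the 40 members were higher and 38 were lower in Rag-sufficient pDC, where 33.9% of all genes tested were higher and 39.8% lower (edgeR's quasi-likelihood test, adjusted p under 0.05). The median log2 difference was -4.10 over the mitotic and -2.01 over the replication members. Top2a, the topoisomerase that untangles replicated chromosomes, was lower in pDC by a log2 difference of -4.89 (SE 0.285; adjusted p = 2.33e-18), and Mki67 by -4.54 (SE 0.258; adjusted p = 1.26e-18). Among the members lower in pDC, Pcna and Rrm1, which also serve DNA repair and nucleotide supply outside the cell cycle, differed least, at -0.24 and -0.72. The 2 members that were higher in pDC were E2f1, a transcription factor of S phase genes, at 0.58 (SE 0.137; adjusted p = 0.000205), and Foxm1, the factor that drives G2 and M phase genes, at 1.09 (SE 0.247; adjusted p = 0.00014). For Foxm1 this pools strains that differ: it had 32.1 to 37 CPM in pDC NOD and 1.01 to 7.01 CPM in cDC2 NOD, but 3.89 to 9.14 CPM in pDC B6g7 and 5.18 to 19.4 CPM in cDC2 B6g7, where the cell types overlapped. pDC were sorted alone on 10.16.2015, so cell type and sort date cannot be told apart in this contrast, and Pcna turned to 0.66 when pDC were set against the cDC2 libraries of 01.05.2016 alone.

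Monocytes had 1 member higher and 37 lower than cDC2 of the same sort date, against 32.6% of all genes higher and 33.6% lower. Mcm6, a subunit of the helicase, was lower by -2.24 (SE 0.149; adjusted p = 3.7e-17), and Uhrf1, which carries DNA methylation through replication, by -3.13 (SE 0.383; adjusted p = 4.76e-09). E2f1 was the single member called higher, at 0.41 (SE 0.16; adjusted p = 0.0227), and had 19.3, 19.7 and 21.9 CPM in NOD and 25, 18.5 and 22.7 CPM in B6g7 monocytes. Cdt1, the loading factor, differed by 0.15 and Aurkb, the kinase of the chromosomal passenger complex, by -0.01, and neither was called.

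The conventional classes were closer together. In cDC1, 20 members were lower and none was higher than in cDC2 (32% of all genes lower), with a median log2 difference of -0.39. Mcm3 was lower by -0.59 (SE 0.103; adjusted p = 2.9e-06), and Prc1, which bundles microtubules of the spindle midzone, by -0.99 (SE 0.215; adjusted p = 0.000114). In moDC, 17 members were lower and none was higher than in cDC2 (23.4% lower), with a median of -0.35. That count was 26 without moDC NOD replicate 1, which held 537 cells, and 10 without moDC NOD replicate 2. With no scaling beyond library totals, the median of all genes shifted by -0.273 in the cDC1 contrast and by -0.193 in the moDC contrast, and 31 and 28 members were called.

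Within Rag-sufficient mice, the comparison of NOD with B6g7 asks how far the strains differ in each cell type. In cDC2, 11 of the 40 members fell in NOD and none rose, where 10.2% of all genes tested fell. In cDC1, 4 rose and 2 fell, against 11.5% of all genes that rose and 8.93% that fell. In pDC, 6 rose and 4 fell, against 5.15% and 7.4% of all genes. In moDC, 2 rose and 4 fell, against 16% and 14.3%, and in monocytes 3 fell and none rose, against 7.52% of all genes that fell. As a share of 40, the falls in cDC2 and the rises in pDC were above the background of all genes in this model. The falls in pDC were near it, and the calls in the other cell types were at or below it. This reading depended on which libraries were in the model. With each cell type fitted alone, cDC2 had 24 members lower (13.4% of all genes lower), cDC1 had 14 higher and 2 lower (13.5% and 12%), and pDC had 2 higher and 3 lower (6.16% and 7.59%). Without moDC NOD replicate 1 and monocyte B6g7 replicates 1 and 2, moDC had 13 lower and none higher (11.4% of all genes lower). The median log2 difference over the 40 members was -0.47 in cDC2, against 0 over all genes, with 1 member positive, and 0.24 in cDC1, against 0.02 over all genes, with 33 members positive. It was -0.14 in moDC, 0.02 in pDC and -0.42 in monocytes. The members moved together across libraries, so the numbers of positive members are not counts of separate results. They have no share of all genes beside them.

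**Figure D2:**
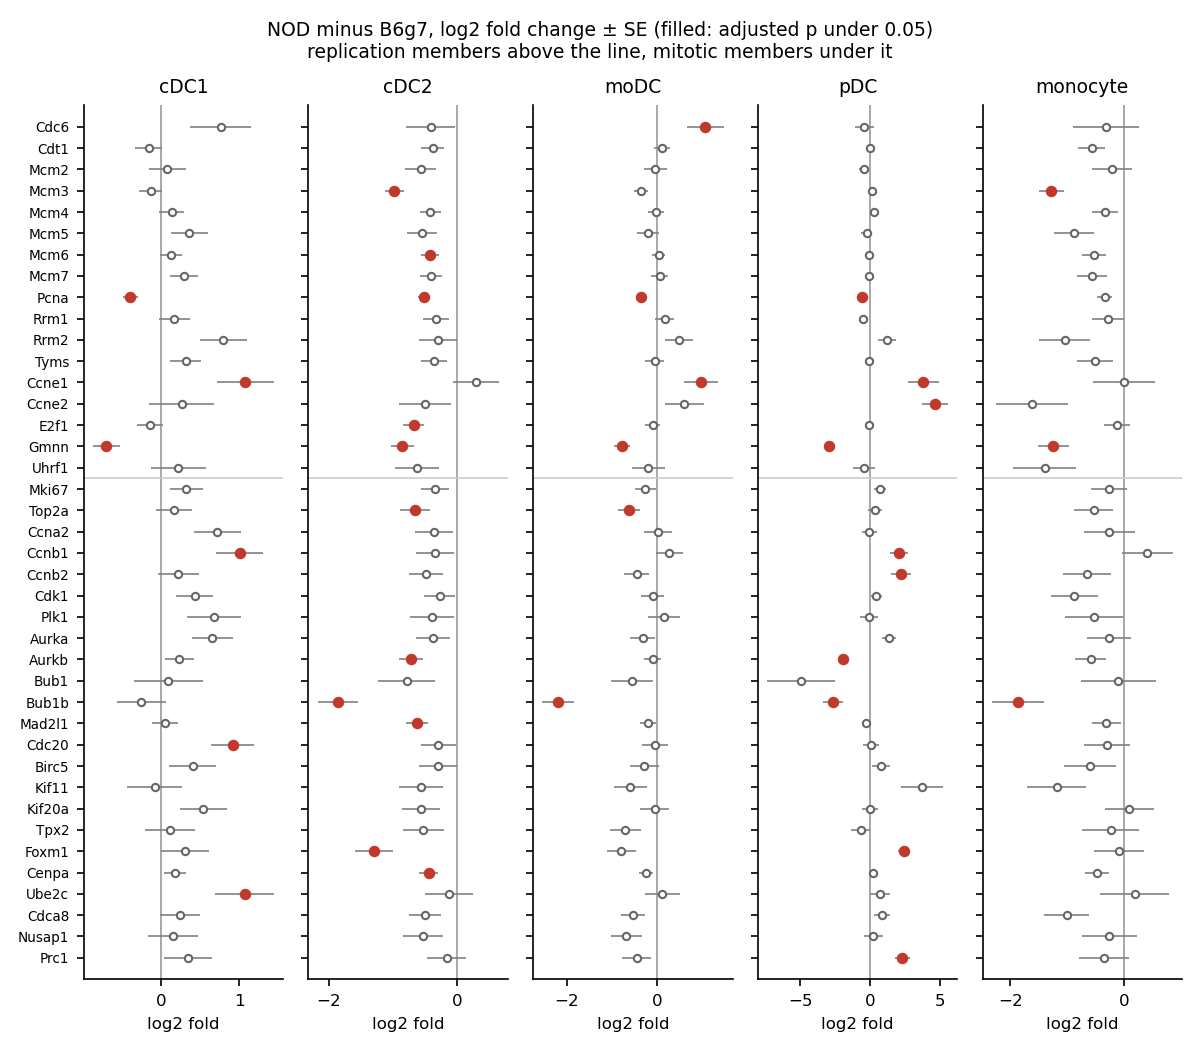
Log2 difference between NOD and B6g7 for each of the 40 members (rows) in the 5 Rag-sufficient cell types (columns); filled points passed an adjusted p of 0.05 and bars are 1 SE, with a scale of its own for each cell type. Gmnn lies below 0 and was called in each of the 5 cell types, and 11 members were called lower in cDC2.

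Gmnn, the inhibitor of Cdt1 that prevents re-replication, fell in NOD in each of the 5 cell types. In cDC1 it had 12.8, 11.7 and 13.9 CPM in NOD and 23.1, 21.5 and 16.1 CPM in B6g7 on 01.05.2016, and 34.1, 44.1 and 54.4 CPM in NOD and 84.3, 86.2 and 61.4 CPM in B6g7 on 10.26.2015. In cDC2 it had 10.9, 17.2 and 15.4 CPM in NOD and 22.5, 20.7 and 29 CPM in B6g7 on 01.05.2016, and 45.7, 40.6 and 71.8 CPM in NOD and 92.9, 95.5 and 125 CPM in B6g7 on 10.26.2015. In both cell types the NOD libraries were all below the B6g7 libraries of the same date, while the dates themselves lay far apart. In moDC it had 11, 11.8 and 11.8 CPM in NOD and 29, 16.8 and 25.6 CPM in B6g7 on 01.05.2016, and 43.2 and 41.7 CPM in NOD and 54.5, 72.3 and 53.3 CPM in B6g7 on 10.26.2015. Monocytes had 5.59, 4.45 and 5.55 CPM in NOD and 14.9, 8.80 and 13.1 CPM in B6g7. pDC had 1.26, 2.97 and 3.90 CPM in NOD and 15.2, 19.5 and 27.3 CPM in B6g7. In each cell type no NOD library reached a B6g7 library of its own date, and the gap was widest in pDC. The log2 difference was -0.70 (SE 0.175; adjusted p = 0.00258) in cDC1, -0.86 (SE 0.173; adjusted p = 0.000204) in cDC2 and -0.78 (SE 0.185; adjusted p = 0.00108) in moDC. It was -2.91 (SE 0.298; adjusted p = 3.62e-10) in pDC and -1.25 (SE 0.268; adjusted p = 0.000697) in monocytes. These calls held without each library of the cell type in turn, but those outside pDC were lost with no term for sort date, that in cDC1 was lost within 01.05.2016 alone and that in moDC within 10.26.2015 alone.

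Pcna, the sliding clamp, fell in 4 cell types by a smaller margin. In pDC it had 122, 111 and 124 CPM in NOD and 196, 171 and 180 CPM in B6g7, a log2 difference of -0.59 (SE 0.131; adjusted p = 0.00116). In cDC2 it had 78.4, 90.6 and 93.7 CPM in NOD and 110, 95.5 and 98.7 CPM in B6g7 on 01.05.2016, and 261, 186 and 271 CPM in NOD and 393, 400 and 482 CPM in B6g7 on 10.26.2015. The strains were apart on each date, and the log2 difference was -0.51 (SE 0.0924; adjusted p = 3.34e-05). In cDC1 and moDC the difference was -0.40 (adjusted p = 0.00127) and -0.36 (adjusted p = 0.00369). All 4 calls were lost with no term for sort date, those in cDC1 and cDC2 within 01.05.2016 alone, that in moDC within 10.26.2015 alone or without scaling beyond library totals, and those in cDC1 and pDC with the replicate number as a block.

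Bub1b, the checkpoint kinase BubR1, had its widest difference among the better-read cell types in moDC. There it had 5.25, 11.9 and 13.1 CPM in NOD and 44.3, 36.9 and 37.8 CPM in B6g7 on 01.05.2016, and 4.12 and 2.40 CPM in NOD and 16.2, 30.4 and 11.9 CPM in B6g7 on 10.26.2015. In cDC2 it had 9.45, 12 and 11 CPM in NOD and 40.8, 36.9 and 43.2 CPM in B6g7 on 01.05.2016, and 6.82, 2.52 and 7.28 CPM in NOD and 20.7, 20.9 and 17.2 CPM in B6g7 on 10.26.2015. No NOD library of either cell type reached a B6g7 library of its date, and the log2 difference was -2.20 (SE 0.348; adjusted p = 4.6e-06) in moDC and -1.86 (SE 0.318; adjusted p = 2.06e-05) in cDC2. Monocytes had 2.60, 5.75 and 4.53 CPM in NOD and 26.2, 8.26 and 12.5 CPM in B6g7, with no overlap and a difference of -1.87 (SE 0.457; adjusted p = 0.00327). In pDC it was close to the limit of reading, at 0.816, 0 and 0.162 CPM in NOD and 0.326, 3.78 and 2.40 CPM in B6g7. The strains overlapped in pDC and the call there (adjusted p = 0.00919) was lost without B6g7 replicate 2, NOD replicate 2 or NOD replicate 3. The monocyte call was lost without B6g7 replicate 1. In cDC1 the strains overlapped and Bub1b was not called.

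Mcm3, 1 of the 6 subunits of the MCM helicase, fell in cDC2 and monocytes. In cDC2 it had 52.2, 57.1 and 60.9 CPM in NOD and 115, 91.2 and 104 CPM in B6g7 on 01.05.2016, and 43.2, 30.4 and 31.2 CPM in NOD and 70.3, 77.3 and 78.4 CPM in B6g7 on 10.26.2015. Monocytes had 10.9, 11 and 14.9 CPM in NOD and 38.6, 22.9 and 27.1 CPM in B6g7. The strains did not overlap on either date or in monocytes, and the log2 difference was -0.98 (SE 0.146; adjusted p = 1.11e-06) in cDC2 and -1.28 (SE 0.215; adjusted p = 1.99e-05) in monocytes. In monocytes, 15.3% of all genes had every NOD library below every B6g7 library, and 17.6% had every one above. Of the members, 4 lay below, none lay above and 36 overlapped, so non-overlap in monocytes was not read as evidence beyond the calls. The calls of Mcm3 in both cell types and of Bub1b in cDC2 and moDC held under every alternative run for them, each library left out in turn included.

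**Figure D3:**
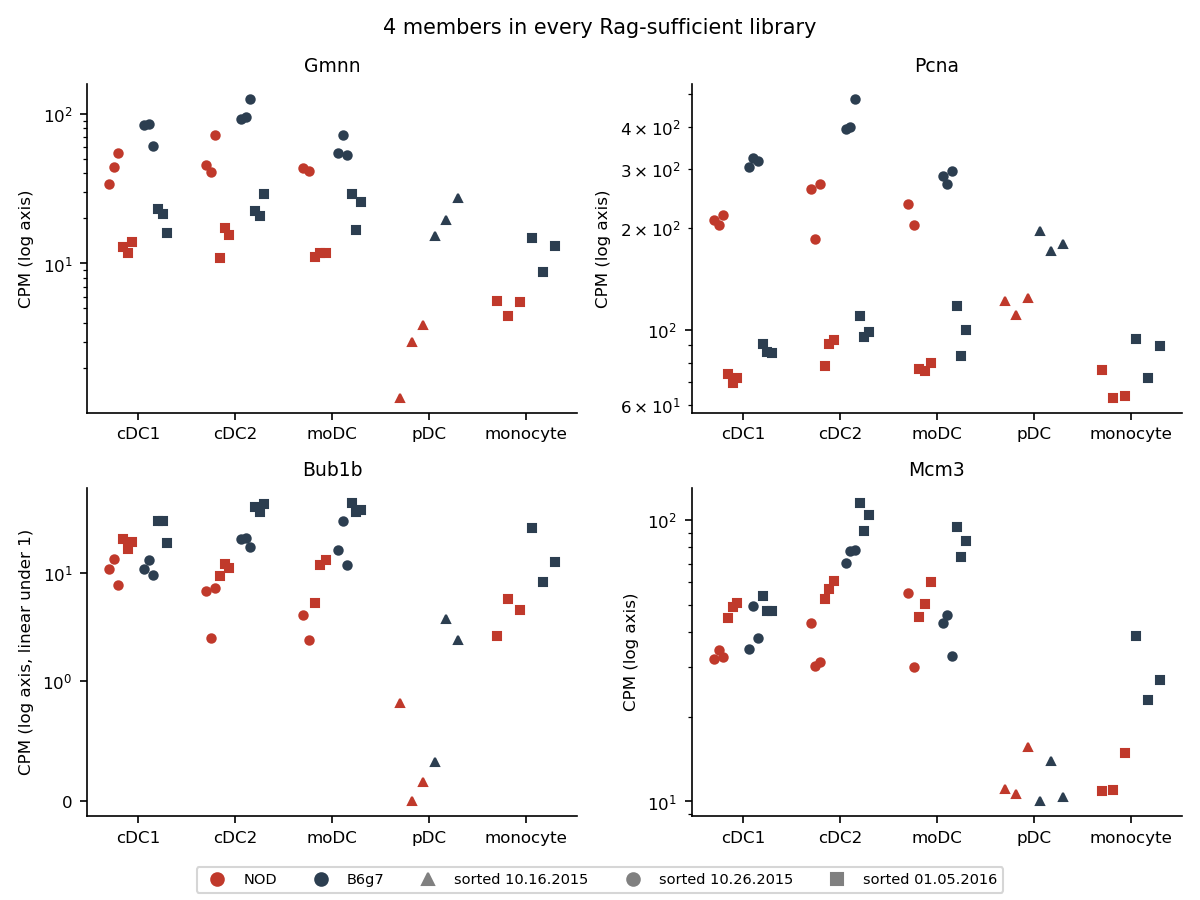
Level of Gmnn, Pcna, Bub1b and Mcm3 in each Rag-sufficient library (CPM, log axis), with NOD left of B6g7 in each cell type and the sort date shown by the marker. In cDC2 the NOD libraries of each date lie below the B6g7 libraries of that date for all 4 genes.

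The other members that fell in cDC2 were Mcm6 (log2 difference -0.43; adjusted p = 0.0223), E2f1 (-0.68; adjusted p = 0.0014), Top2a (-0.66; adjusted p = 0.0311), Aurkb (-0.72; adjusted p = 0.00356), Mad2l1 (-0.62; adjusted p = 0.00514), Foxm1 (-1.30; adjusted p = 0.00101) and Cenpa, the histone H3 variant of the centromere (-0.45; adjusted p = 0.0191). Foxm1 had 6.67, 7.01 and 5.30 CPM in NOD and 19.4, 11.7 and 11 CPM in B6g7 on 01.05.2016, and 3.65, 1.01 and 4.33 CPM in NOD and 9.88, 9.81 and 5.18 CPM in B6g7 on 10.26.2015. Aurkb had 11.1, 13.4 and 16.1 CPM in NOD and 22.1, 21.4 and 23.6 CPM in B6g7 on 01.05.2016, and 22.1, 17.4 and 23.9 CPM in NOD and 37.1, 35 and 33.1 CPM in B6g7 on 10.26.2015. For both genes the strains were apart on each date. In all, 12 of the 40 members had every NOD cDC2 library below every B6g7 library of the same date and none had it above, against 7.54% of all genes below. The call of Top2a held in 7 and that of Mcm6 in 9 of the 12 models that left out 1 cDC2 library, and that of Cenpa in 11, whereas the other 8 calls held in all 12. B6g7 cDC2 replicates 5 and 6 had RNA integrity numbers of 6.8 and 3.9, and without them Top2a and Cenpa were no longer called.

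Markers of other cells moved with strain in cDC2. Of 10 erythroid markers measured, all 10 were higher in NOD, with a summed level of 2660 to 25000 CPM (median 9620) in NOD and 138 to 2290 CPM (median 539) in B6g7, and none was at 0 in either group. All 11 markers of neutrophils and their precursors were higher too, with sums of 3.20 to 1960 CPM in NOD and 0.435 to 10.2 CPM in B6g7, where 3 of the 11 were at 0. Of the B cell markers 8 of 10 and of the T cell markers 8 of 10 were higher, with B cell sums of 181 to 890 CPM in NOD and 102 to 203 CPM in B6g7 and T cell sums of 13.9 to 155 CPM in NOD and 4.27 to 22.8 CPM in B6g7. Lists of other myeloid cells moved as well: 6 of 10 cDC1 markers were higher (sums of 518 to 814 CPM in NOD and 411 to 721 CPM in B6g7), 4 of 10 pDC markers were higher and 1 lower (164 to 352 CPM in NOD and 216 to 291 CPM in B6g7), and 3 of 8 red pulp macrophage markers were lower (216 to 621 CPM in NOD and 381 to 763 CPM in B6g7). The part of these cells in the cDC2 result was not tested.

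In cDC1 the members that rose in NOD were Ccne1, the G1/S cyclin E1, at 1.08 (SE 0.368; adjusted p = 0.0306), the mitotic cyclin Ccnb1 at 1.01 (SE 0.303; adjusted p = 0.0139), Cdc20 at 0.92 (SE 0.273; adjusted p = 0.013) and Ube2c, the ubiquitin-conjugating enzyme of the anaphase-promoting complex, at 1.07 (SE 0.378; adjusted p = 0.0408). Ccnb1 had 20.1, 27.3 and 24.9 CPM in NOD and 23, 17.2 and 17.2 CPM in B6g7 on 01.05.2016, and 67.6, 53.8 and 56.8 CPM in NOD and 21.9, 21.8 and 14.0 CPM in B6g7 on 10.26.2015. Ube2c had 35, 31.7 and 37.1 CPM in NOD and 22.9, 19.1 and 19 CPM in B6g7 on 01.05.2016, and 148, 173 and 159 CPM in NOD and 80.2, 58.2 and 57.8 CPM in B6g7 on 10.26.2015. The strains were apart on both dates for Ube2c and on 10.26.2015 alone for Ccnb1. Of the 40 members, 4 lay above on both dates (Rrm2, Cdc20, Birc5 and Ube2c) and 2 lay below (Pcna and Gmnn), against 6.99% of all genes above and 7.68% below. The call of Ube2c held in 2 and that of Ccne1 in 7 of the 12 models that left out 1 cDC1 library, and the count of calls was 3 without cDC1 B6g7 replicate 3. All 10 erythroid markers were higher in NOD cDC1 as well, with sums of 2240 to 12800 CPM (median 4690) in NOD and 142 to 2350 CPM (median 675) in B6g7, and 8 of 10 B cell and 7 of 10 T cell markers were higher, with B cell sums of 42.4 to 680 CPM in NOD and 71.6 to 111 CPM in B6g7 and T cell sums of 9.65 to 83.1 CPM in NOD and 2.18 to 7.98 CPM in B6g7. None of the markers of these 3 lists was at 0 in either group. Of the neutrophil markers 3 of 11 were higher, with sums of 9.85 to 275 CPM in NOD and 0.464 to 5.09 CPM in B6g7, where 4 were at 0. Of the plasma cell markers, Sdc1 (log2 difference 4.35) and Mzb1 (4.265) were higher and the others were not called. Plasma cell sums were 231 to 819 CPM in NOD and 234 to 299 CPM in B6g7. Of the red pulp macrophage markers, Spic (1.40) and Hmox1 (0.81) were higher and the others were not called. Red pulp macrophage sums were 400 to 1020 CPM in NOD and 332 to 492 CPM in B6g7. The part of all these cells in the cDC1 result was not tested.

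In moDC, Cdc6 rose by 1.07 (adjusted p = 0.0385) and Ccne1 by 0.97 (adjusted p = 0.0439), and Top2a fell by 0.63 (adjusted p = 0.0487), beside Gmnn, Pcna and Bub1b. Cdc6 had 15.6, 15.3 and 10.9 CPM in NOD and 11.1, 3.80 and 7.40 CPM in B6g7 on 01.05.2016, and 18.2 and 9.07 CPM in NOD and 5.62, 4.11 and 7.44 CPM in B6g7 on 10.26.2015. Its groups overlapped on 01.05.2016. On both dates, NOD lay below B6g7 for 5 members in moDC (Pcna, Gmnn, Bub1b, Tpx2 and Foxm1), against 8.32% of all genes. Ccne1 stood at 30.1 CPM in NOD replicate 1 and between 5.90 and 13.7 CPM in the other NOD libraries, against 3.91 to 8.33 CPM in B6g7. The calls of Cdc6, Ccne1 and Top2a each held in at most 4 of the 11 models that left out 1 moDC library, and the count of 6 was 3 without B6g7 replicate 1 or B6g7 replicate 2. With no scaling beyond library totals, the median of all genes shifted by 0.124 and 2 members were higher and 2 lower. Of the markers of other cells, 11 of 11 for neutrophils (499 to 1740 CPM in NOD and 2.77 to 212 CPM in B6g7), 9 of 10 for erythroid cells (2620 to 18100 CPM in NOD and 62.2 to 1690 CPM in B6g7), 10 of 10 for B cells (495 to 2940 CPM in NOD and 87.5 to 359 CPM in B6g7) and 8 of 10 for T cells (71.4 to 229 CPM in NOD and 5.37 to 64.5 CPM in B6g7) were higher in NOD moDC. Of these, 2 neutrophil markers were at 0 in B6g7. Of the cDC1 markers 8 of 10 were higher and 1 lower (sums of 854 to 1760 CPM in NOD and 558 to 650 CPM in B6g7), of the plasma cell markers 5 of 6 were higher (713 to 13000 CPM in NOD and 284 to 2440 CPM in B6g7), and of the pDC markers 4 of 10 were higher and 1 lower (207 to 641 CPM in NOD and 235 to 501 CPM in B6g7). Of the monocyte and macrophage markers 6 of 10 were higher (12200 to 22300 CPM in NOD and 7300 to 18800 CPM in B6g7), as were 4 of 8 for red pulp macrophages (672 to 2240 CPM in NOD and 498 to 1140 CPM in B6g7), and of the markers of haematopoietic progenitors 2 of 8 were higher and 4 lower (297 to 604 CPM in NOD and 547 to 860 CPM in B6g7). The part of these cells in the moDC result was not tested.

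In pDC the members were read at low levels, and both directions were called. Foxm1 had 32.1, 32.3 and 37 CPM in NOD and 9.14, 6.08 and 3.89 CPM in B6g7, with no overlap and a log2 difference of 2.44 (SE 0.43; adjusted p = 4.24e-05). Prc1 had 9.20, 3.13 and 3.41 CPM in NOD and 1.39, 0.815 and 1.08 CPM in B6g7, a difference of 2.29 (adjusted p = 0.00215). Aurkb went the other way, at 0.668, 1.98 and 1.87 CPM in NOD and 4.24, 9.26 and 3.89 CPM in B6g7, a difference of -1.92 (adjusted p = 4.24e-05). The strains did not overlap for any of the 3 genes. In pDC, 11.1% of all genes had every NOD library above every B6g7 library, and 15.8% had every one below. Of the members, 7 lay above, 4 lay below and 29 overlapped. Non-overlap is thus common in pDC, here and for the cyclins below, and was not read as evidence beyond the calls.

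Of the 5 cyclins among the members, Ccne1, Ccne2, Ccnb1 and Ccnb2 rose in NOD pDC, and Ccna2, cyclin A2, differed by -0.05 and was not called. Ccne2, cyclin E2, had 9, 27 and 43 counts in NOD and 0, 3 and 0 counts in B6g7, a ratio of 27.5 after scaling to library size with an exact 95% counting interval of 9.06 to 136. Ccne1 had 5, 5 and 21 counts in NOD and 0, 2 and 0 counts in B6g7, a ratio of 16.2 with an interval of 4.11 to 139. These intervals cover counting error only. Ccnb1 had 1.19, 4.04 and 3.16 CPM in NOD and 0.816, 0.445 and 0.828 CPM in B6g7, and Ccnb2 had 3.49, 0.381 and 3.41 CPM in NOD and 1.31, 0 and 0.331 CPM in B6g7. The strains were apart for Ccne1, Ccne2 and Ccnb1 and overlapped for Ccnb2, and the log2 differences were 2.04 for Ccnb1 and 2.20 for Ccnb2. The calls of Ccnb1 and Ccnb2 held in 1 and 2 of the 6 models that left out 1 pDC library and that of Ccne1 in 3, while those of Ccne2, Foxm1 and Aurkb held in all 6. Bub1, the checkpoint kinase that docks at the kinetochore, had no count in the 3 NOD libraries, which over the group allows up to 0.0756 CPM (3 counts), and 9, 0 and 0 counts in B6g7.

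Markers of macrophages moved the other way in pDC. All 8 red pulp macrophage markers were lower in NOD, with sums of 89.4 to 140 CPM in NOD and 481 to 675 CPM in B6g7 and none at 0 in either group, and 5 of 10 monocyte and macrophage markers were lower and 2 higher, with sums of 2070 to 2250 CPM in NOD and 8910 to 9100 CPM in B6g7. Erythroid markers were higher for 6 of 10, with sums of 1770 to 3340 CPM in NOD and 34.5 to 595 CPM in B6g7. Their part in the pDC result was not tested. In monocytes 6 of 11 neutrophil markers were lower in NOD, with sums of 261 to 418 CPM in NOD, where 2 of the 11 were at 0, and 1690 to 7870 CPM in B6g7. The B6g7 monocyte libraries also spread widely in the members: Mcm5 had 13.1, 17.5 and 18.9 CPM in NOD and 55.9, 8.10 and 27.3 CPM in B6g7. The 3 calls in monocytes became 15 without B6g7 replicate 2 and 5 without B6g7 replicate 3, and the part of neutrophils in them was not tested.

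The further genes of the same pathways, from lists of 39 replication and 41 mitotic genes, were counted in the same way. Of the replication list, 9 fell in cDC2 and none rose, 6 fell in moDC and none rose, 7 fell in monocytes and none rose, 4 rose and 1 fell in cDC1, and 1 rose and 4 fell in pDC. Of the mitotic list, 12 fell in cDC2, 16 in moDC and 6 in monocytes and none rose in these, while 4 rose and 1 fell in cDC1 and 4 rose and 6 fell in pDC. The shares of all genes that fell, as given above, were 10.2% in cDC2, 14.3% in moDC, 7.52% in monocytes, 8.93% in cDC1 and 7.4% in pDC. Pttg1, the securin that keeps separase inactive until anaphase, fell in each of the 5 cell types, by a log2 difference of -3.06 in pDC, -2.55 in monocytes, -1.84 in moDC, -1.32 in cDC2 and -1.0 in cDC1. Among the cell cycle brakes and G1 regulators, of which 23 were tested, 7 rose and 1 fell in cDC1, 4 rose and 5 fell in cDC2, 4 rose and 3 fell in moDC, 2 rose and 3 fell in pDC, and 4 fell in monocytes. Shares of all genes that rose stand further above for cDC1, moDC and pDC. None is given for cDC2, so the 4 rises there are not read against a background. Ccnd2, cyclin D2, rose by 0.98 in cDC1 and fell by 1.18 in cDC2, and Ccnd1, cyclin D1, fell by 2.22 in moDC, 1.66 in pDC and 1.92 in monocytes.

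The authors' deposited table of their own strain comparison, which is by transcript, holds 61 transcripts of the 40 members. In the authors' deposited table, 12 of these were lower and none higher in NOD cDC2, 5 were higher and 1 lower in cDC1, 1 higher and 5 lower in moDC, 3 higher and 2 lower in pDC, and 2 lower in monocytes, at their adjusted p under 0.05. Over all 21868 transcripts of the authors' deposited table, 6.77% were higher and 5.68% lower in cDC2, 6.05% and 4.87% in cDC1, 8.98% and 7.84% in moDC, 4.08% and 4.08% in pDC, and 4.26% and 3.84% in monocytes. In the authors' deposited table of the Rag1-/- comparison, none of 66 transcripts of the members was called in any of the 4 cell types, where at most 1.86% of all 27044 transcripts were higher and 1.9% lower (both in pDC).

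The difference between cell types was tested directly. The strain difference in cDC2 minus that in cDC1 was negative for all 40 members, with a median of -0.73 against -0.02 over all genes, and 5 members passed the test, where 3.27% of all genes did in that direction. These were Mcm3 at -0.84 (SE 0.206; adjusted p = 0.00704), Ccnb1 at -1.36 (adjusted p = 0.0471), Aurkb at -0.96 (adjusted p = 0.0216), Bub1b at -1.60 (adjusted p = 0.0206) and Foxm1 at -1.60 (adjusted p = 0.0155). Without cDC1 B6g7 replicate 3 the count was 3. The members moved together across libraries, so the 40 negative signs are not separate results, and no share of all genes stands beside them. The difference between moDC and cDC1 passed the test for Bub1b alone, at -1.94 (SE 0.46; adjusted p = 0.00426), where 4.44% of all genes passed in that direction, and for 3 members without moDC NOD replicate 1. Between cDC2 and moDC no member passed edgeR's test, where 5.84% of all genes did, 5 had an unadjusted p under 0.05, and 1 passed without cDC2 NOD replicate 1, moDC B6g7 replicate 4 or any of moDC NOD replicates 2, 3 and 4.

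The cDC1, cDC2 and moDC libraries came from 2 sort dates, which held both strains. Within 01.05.2016 alone, no member was called in cDC1 (11.4% of all genes were; 5 members had an unadjusted p under 0.05), 5 fell in cDC2 (6.56% of all genes fell) and 4 fell in moDC (8.83%). Within 10.26.2015 alone, 3 rose and 2 fell in cDC1 (8.94% and 6.77% of all genes), 7 fell in cDC2 (7.13%) and 1 fell in moDC (13.5%). On 01.05.2016 the members called in cDC2 were Mcm3 (-0.90), Gmnn (-0.76), Aurkb (-0.76), Bub1b (-1.93) and Cenpa (-0.61), and those in moDC were Mcm3 (-0.72), Pcna (-0.40), Gmnn (-1.06) and Bub1b (-1.99). The test of whether the strain difference itself differed between the dates passed for no member in any of the 3 cell types, where 0.678%, 0.746% and 5.11% of all genes passed in cDC1, cDC2 and moDC, and 3, 1 and 2 members had an unadjusted p under 0.05. In moDC 1 member passed without NOD replicate 2.

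The dates also differed from each other, in both strains. Libraries of 01.05.2016 were made from 3017 to 5000 cells and those of 10.26.2015 from 537 to 2000. In the later libraries 8 members were higher and 12 lower in cDC1 (36.5% and 28.7% of all genes), 6 higher and 18 lower in cDC2 (33.7% and 29.3%), and 7 higher and 14 lower in moDC (33.4% and 28.6%). Ube2c was lower by -1.87 in cDC1, -2.55 in cDC2 and -1.99 in moDC, Pcna by -1.62, -1.81 and -1.52, and Cdk1, the kinase of mitotic entry, by -1.86, -2.06 and -1.64. Mcm4, another helicase subunit, was higher by 0.78, 0.80 and 1.08, and Bub1b by 1.11, 0.95 and 1.24 in the same order of cell types. With no scaling beyond library totals the median of all genes moved by 0.551, 0.491 and 0.639, and the splits became 14 higher and 8 lower in cDC1, 12 higher and 10 lower in cDC2, and 15 higher and 8 lower in moDC.

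**Figure D4:**
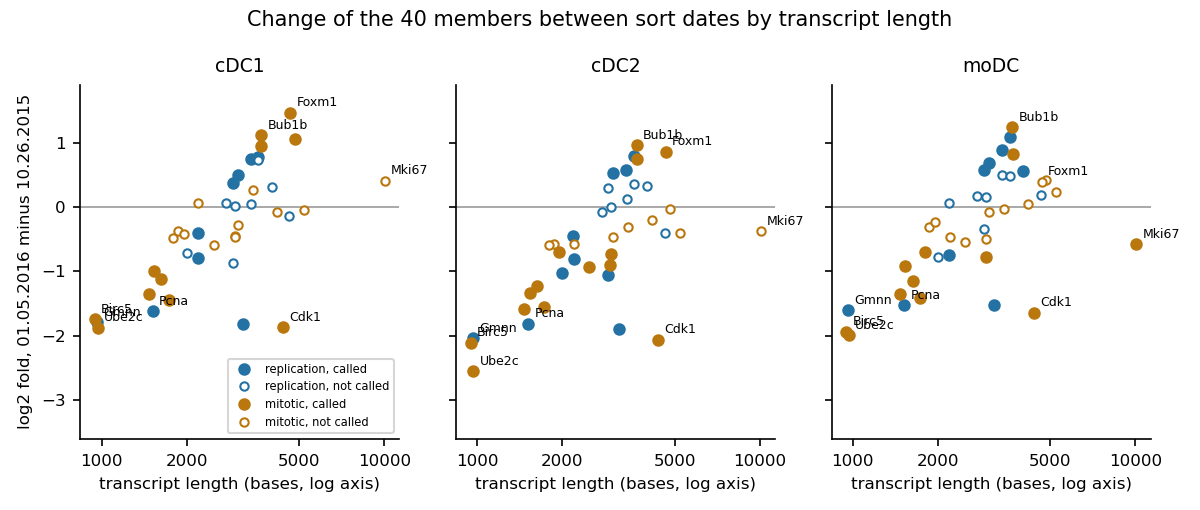
Log2 difference between 01.05.2016 and 10.26.2015 (vertical axis) against transcript length in bases (horizontal log axis) for the 40 members in cDC1, cDC2 and moDC. Short transcripts such as Ube2c lie below 0 and the longer ones that were called lie mostly above it.

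The split between members ran with transcript length. Called members that were higher on 01.05.2016 had a median transcript length of 3628 bases in cDC1, 3628 in cDC2 and 3589 in moDC, and those that were lower had 1578, 1975 and 1676 bases. Over the 40 members, Spearman's rho between length and the date difference was 0.688 in cDC1, 0.674 in cDC2 and 0.641 in moDC, and over 13149 genes it was 0.623, 0.575 and 0.559. These are descriptions across genes measured in the same libraries. For the strain difference, which was taken within dates, rho over the members lay between -0.212 and 0.062 across the 5 cell types. Over all genes it lay between -0.0661 and 0.165. For cell types minus cDC2 in Rag-sufficient mice, rho over the members was -0.287 in cDC1, -0.311 in moDC, -0.402 in monocytes and -0.057 in pDC. Over all genes these were -0.0551, -0.129, -0.0201 and -0.212. In Rag1-/- mice it was -0.14 in cDC1, -0.226 in moDC and -0.544 in pDC, against -0.0355, -0.0842 and -0.368 over all genes. The part of cell number or RNA input in the date difference was not tested.

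In the Rag1-/- libraries, the 8 libraries sorted on 02.02.2015 stood apart from the others of their groups. Their scores were the highest in 7 of the 8 groups, and all 23 mitotic members were highest in that library in 5 of the groups. The widest gap was in pDC NOD Rag1-/- replicate 2, with a replication score of 7.02 and a mitotic score of 6.40, against 3.74 to 3.90 and 2.57 to 2.96 in the other pDC NOD Rag1-/- libraries. In that library the erythroid markers summed to 31400 CPM and the pDC markers to 8730 CPM, the lowest of all pDC libraries. In pDC B6 Rag1-/- the 02.02.2015 library was the lowest of its group.

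**Figure D5:**
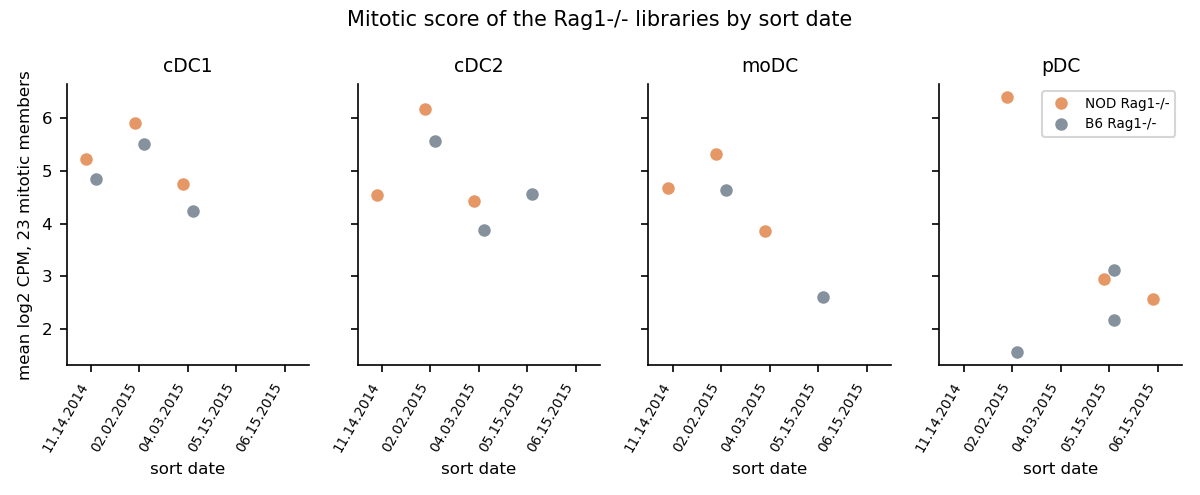
Mitotic score (mean log2 CPM of 23 members, vertical axis) of each of the 23 Rag1-/- libraries by sort date (horizontal axis), with 1 panel per cell type and color for strain. The libraries of 02.02.2015 are the highest of their group in all groups but pDC B6 Rag1-/-.

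No member differed between NOD Rag1-/- and B6 Rag1-/- in cDC1 (1.67% of all genes called), cDC2 (2.34%) or moDC (1.49%) by edgeR's quasi-likelihood test, and DESeq2 and limma also called none. At an unadjusted p under 0.05 there were 0, 1 and 0 members. The median log2 difference over the 40 members was 0.41 in cDC1, 0.29 in cDC2 and 0.67 in moDC. On each sort date that held both strains of these cell types, the scores were higher in NOD Rag1-/-. In cDC1 the mitotic score was 5.23 in NOD Rag1-/- and 4.86 in B6 Rag1-/- on 11.14.2014, 5.92 and 5.51 on 02.02.2015, and 4.76 and 4.24 on 04.03.2015, and the replication score was 5.41 in NOD Rag1-/- and 5.10 in B6 Rag1-/-, 6.33 and 5.56, and 5.42 and 5.01 on the same dates. In cDC2 the replication score was 6.60 in NOD Rag1-/- and 6.08 in B6 Rag1-/- on 02.02.2015 and 5.35 and 5.05 on 04.03.2015, and in moDC it was 5.97 and 5.23 on 02.02.2015. With sort date as a term shared by the cell types, no member was called in these 3. With sort date as a term within each cell type, 5 residual degrees of freedom were left, and this model was chosen after seeing the data. In it no member was called or had an unadjusted p under 0.05 by edgeR's test in cDC1 or cDC2. Of the members, 34 were positive in cDC1 and 35 in cDC2. For moDC it set 1 NOD Rag1-/- library against 1 B6 Rag1-/- library, both of 02.02.2015, and 34 members were positive. The members moved together in these libraries, so these are not counts of separate results. Neither they nor the medians above have a value over all genes beside them. Gmnn had 18.1, 36.3 and 14.6 CPM in cDC1 NOD Rag1-/- and 23.2, 27.2 and 24.4 CPM in cDC1 B6 Rag1-/-, and the groups overlapped. Erythroid markers were high in the NOD Rag1-/- libraries of these cell types too, with sums of 9690 to 12400 CPM in cDC1 NOD Rag1-/- and 388 to 3780 CPM in cDC1 B6 Rag1-/-. The biological coefficient of variation was 44.2% in this model and 22.1% in that of the Rag-sufficient libraries.

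In pDC, 5 members were called higher in NOD Rag1-/- (1.87% of all genes were), and all 5 rested on the library that stood apart. Cdc6 had 3.57, 97.1 and 4.16 CPM in NOD Rag1-/- and 0.499, 1.07 and 1.12 CPM in B6 Rag1-/-, a log2 difference of 5.22 (SE 1.13; adjusted p = 0.0111). The others were Ccne1 at 4.29 (adjusted p = 0.0427), Plk1, the polo-like kinase, at 3.81 (adjusted p = 0.0488), Rrm2, a ribonucleotide reductase subunit, at 3.71 (adjusted p = 0.0444), and Kif20a, a kinesin of cytokinesis, at 3.71 (adjusted p = 0.0435). None was called without the 02.02.2015 libraries, and none without B6 Rag1-/- replicate 1, B6 Rag1-/- replicate 2 or NOD Rag1-/- replicate 2, whereas 23 were called without B6 Rag1-/- replicate 3, 24 without NOD Rag1-/- replicate 1 and 25 without NOD Rag1-/- replicate 3. DESeq2 called 25 and limma 1. Shares of all genes are not set beside these alternative counts, so they are not read against a background. Ccnb1 had 7.23, 220 and 9.37 CPM in NOD Rag1-/- and 1.40, 3.87 and 14.2 CPM in B6 Rag1-/-, and Mki67 had 5.30, 141 and 11.9 CPM in NOD Rag1-/- and 3.99, 6.49 and 18.5 CPM in B6 Rag1-/-. For both genes replicate 2 of NOD Rag1-/- was the single high library and the rest overlapped with the control. Foxm1 followed another pattern, with 84.9, 38.7 and 23.4 CPM in NOD Rag1-/- and 7.48, 8.23 and 20.7 CPM in B6 Rag1-/-, with no overlap but no call (adjusted p = 0.0885). In Rag1-/- pDC, 6.39% of all genes had every NOD library above every control library, and 5.62% had every one below. Of the members, 3 lay above, none lay below and 37 overlapped.

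The strain difference in Rag1-/- minus that in Rag-sufficient mice passed the test for no member in cDC1 (0.123% of all genes), cDC2 (0.47%) or moDC (0.217%), with 0, 1 and 1 members at an unadjusted p under 0.05. In pDC it passed for Cdc6 at 5.70, Mcm5 at 2.79, Mcm7 at 2.37 and Aurkb at 3.88 (0.578% of all genes were positive and passed). Without the 02.02.2015 libraries, or without pDC NOD Rag1-/- replicate 2 alone, no member passed. Without pDC B6 Rag1-/- replicate 1 or 2 it was 2, without replicate 3 it was 9, and without NOD Rag1-/- replicate 1 or 3 it was 11 or 12. Without replicate 1, 2 or 3 of the Rag-sufficient groups it was 1, 1 or 2. These counts with libraries left out have no share of all genes beside them.

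Against the Rag-sufficient libraries, which were sequenced in another run, sorted on other dates and made from fewer cells, 33 members were higher in Rag1-/- pDC and none was lower, where 7.5% of all genes were higher. In cDC1 14 were higher (9.48% of all genes), in cDC2 5 (14.8%), and in moDC none was called (21.2% of all genes in either direction; 2 members at an unadjusted p under 0.05, and none by DESeq2 or limma), and none was lower in these. Rag1 genotype, run and sort date cannot be told apart here, and the control strains differ in name. In cDC1 the largest differences among the members called were Foxm1 at 1.73 (SE 0.359; adjusted p = 0.000479) and Kif11, the spindle motor Eg5, at 1.67 (SE 0.437; adjusted p = 0.00545), and Rrm1, the large subunit of ribonucleotide reductase, rose by 1.08 (SE 0.264; adjusted p = 0.003). In cDC2 the 5 were Mcm2 at 0.89, Mcm4 at 0.80, Rrm1 at 0.89, Bub1b at 1.17 and Kif11 at 1.17. In pDC Mki67 was higher by 2.79 (SE 0.464; adjusted p = 1.61e-05), Top2a by 3.22 (SE 0.489; adjusted p = 2.79e-06) and Cdc20 by 3.42 (SE 0.545; adjusted p = 6.86e-06). The sets overlapped for Mki67, whose highest library was pDC NOD Rag1-/- replicate 2. In Rag1-/- pDC, erythroid sums were 1960 to 31400 CPM, neutrophil sums 201 to 1550 CPM and pDC marker sums 8730 to 42100 CPM. In Rag-sufficient pDC these were 34.5 to 3340, 0.406 to 2.45 and 18200 to 26700 CPM. B cell sums were 70.5 to 205 CPM in Rag1-/- and 168 to 270 CPM in Rag-sufficient pDC. The part of these cells in the pDC result was not tested.

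These counts depended on which libraries were in the model. Shares of all genes are not set beside the counts that follow, so they are not read against a background. Without the 02.02.2015 libraries, 5 members were higher and none lower in cDC1, 2 were lower and none higher in cDC2, and 1 was lower in moDC. Without the Rag-sufficient libraries of 10.26.2015, 4 members were higher in cDC1 and none was called in cDC2 or moDC. Without those of 01.05.2016, 13 were higher and 5 lower in cDC1, 7 higher and 8 lower in cDC2, and 4 higher and 8 lower in moDC. Leaving out B6 Rag1-/- replicate 2, NOD Rag1-/- replicate 2 or replicate 1 of the Rag-sufficient groups left 6 calls in cDC1, and leaving out replicate 2 or 3 of the Rag-sufficient groups left 7 or 8. In cDC2, 1 call was left without B6 Rag1-/- replicate 1, NOD Rag1-/- replicate 2, or replicate 1 or 3 of the Rag-sufficient groups, 3 without B6 Rag1-/- replicate 3 and 2 without replicate 2 of the Rag-sufficient groups. In pDC 17 were left without NOD Rag1-/- replicate 2. Transcript length ran with this contrast as well, with a Spearman's rho over the members of 0.662 in cDC1, 0.630 in cDC2 and 0.716 in moDC, against 0.463, 0.424 and 0.434 over all genes, and of -0.038 in pDC, against 0.215 over all genes.

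Among Rag1-/- libraries fewer members were called between cell types, in the model with the wider spread given above, and whether the cell types differed less than in Rag-sufficient mice was not tested. The median log2 difference over the 40 members was -0.03 for cDC1 minus cDC2, -0.67 for moDC minus cDC2 and -1.22 for pDC minus cDC2. No member differed between cDC1 and cDC2 (23% of all genes called) or between moDC and cDC2 (12%) by edgeR's test, with no member at an unadjusted p under 0.05 in either. The model held no term for sort date, although each group had a library of 02.02.2015, so the spread between dates stayed in its error. Counts that moved without those libraries are given below. In pDC, 14 members were lower than in cDC2 and none was higher (26.4% of all genes lower), among them Mcm3 at -1.53 (SE 0.424; adjusted p = 0.00516), Kif20a at -2.31 (SE 0.67; adjusted p = 0.00706) and Mki67 at -2.18 (SE 0.653; adjusted p = 0.00863). That count was 32 without pDC NOD Rag1-/- replicate 2.

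The members moved together across libraries. Over all 70 libraries the median Pearson correlation of log2 CPM was 0.724 between pairs of replication members, 0.735 between pairs of mitotic members and 0.704 between a replication and a mitotic member. It was 0.525, 0.546 and 0.489 over the 47 Rag-sufficient libraries and 0.842, 0.879 and 0.840 over the 23 Rag1-/- libraries. Without the 8 libraries of 02.02.2015 it was 0.444, 0.491 and 0.423 over 62 libraries. These are descriptions, since the libraries differ in cell type, sort date and depth.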

How the data were processed

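Total RNA of sorted cells was amplified by the SMART-seq v4 protocol for low input and read in pairs, per the labels' protocols. The authors deposited expected counts per transcript, made with RSEM per the submitters' processing notes. Aligner, build and annotation were not given in the sources used here. That table is named as CPM, but its values are expected counts: 55.4% of entries above 0 are fractional and the totals differ between libraries. The authors' deposited table of log2 fold changes and p-values per transcript, made with limma per the submitters' processing notes, was used for 1 comparison. The deposited post-processed values were not used. The authors' counting is not stated to use strand.

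Counts of 35070 transcripts were summed to 24429 genes and rounded, with 34710 transcripts named from RefSeq, 262 from the authors' tables and 98 left without a name. Genes with at least 1 CPM in at least 3 libraries were fitted with edgeR 4.0.16 (TMM scaling, robust quasi-likelihood test, two-sided, Benjamini-Hochberg over all genes tested, threshold 0.05) in R 4.3.3. The Rag-sufficient model had 47 libraries and 13413 genes, with strata of cell type and sort date. The Rag1-/- model had 23 libraries and 13137 genes, and the model across both sets had 70 libraries and 13837 genes. Exact counting intervals were used for members near 0. No 2 libraries of a group were copies: the lowest chi-square per degree of freedom over 119 pairs was 9.3. The main edgeR models were each tested on simulated counts in a single contrast. The other steps and the alternatives had no such test. Alternatives were DESeq2 1.42.0, limma 3.58.1, other scalings and filters, date terms, a replicate block, and each library left out. The members and lists were chosen with earlier results of these data known. The members are named as listed, with values for the larger changes among those called, and further genes are named for calls in most cell types.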

Additional observations from a re-analysis of the deposited data

Results flagged for a closer look

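Of 132 sets of values tested (a chosen member or a list score in a group of 4 to 10 libraries), 5 held a library far from the others. Not every member was tested. Chance alone flags about 1 in 20 where the libraries of a group are alike, but these groups each pool 2 sort dates. Mki67 stood at 48.1 CPM in cDC1 NOD replicate 2, the lowest of its group. Uhrf1 stood at 56.8 CPM in cDC2 B6g7 replicate 4. Mcm5 stood at 36.2 CPM in cDC2 NOD replicate 2, and Mcm6 at 49.4 CPM in moDC NOD replicate 2. Rrm2 stood at 128 CPM in moDC NOD replicate 1, which was made from 537 cells.

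For 5 members the strain difference itself differed between cDC2 and cDC1 (interaction in edgeR's quasi-likelihood model, adjusted p under 0.05). The difference between them was -0.8426 on the log2 scale for Mcm3, -1.362 for Ccnb1, -0.9572 for Aurkb, -1.601 for Bub1b and -1.598 for Foxm1. Between moDC and cDC1 it was -1.943 for Bub1b. Between Rag1-/- and Rag-sufficient pDC it was 5.704 for Cdc6, 2.795 for Mcm5, 2.374 for Mcm7 and 3.876 for Aurkb, and these 4 were no longer called without pDC NOD Rag1-/- replicate 2.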

How the results depend on the processing

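The 33 counts of members called had 704 alternative values in all, counted over every result and setting. Of these values, 95 differed from the reported count by over 1.5 times. Shares of all genes are not set beside the alternative counts that follow, so they are not read against a background. DESeq2 gave 8 calls for strain in monocytes, 25 for strain in Rag1-/- pDC and 14 for the strain by Rag set difference in pDC. With limma 13 members differed between cDC1 and cDC2, 30 between pDC and cDC2 in Rag1-/-, 1 for strain in Rag1-/- pDC, 8 and 2 between the Rag sets in cDC1 and cDC2, and 2 for strain by Rag set in pDC. With no scaling beyond library totals the counts were 31 for cDC1 against cDC2, 28 for moDC against cDC2, 3 for strain in cDC2 against cDC1, 2 between the Rag sets in cDC2, 2 for strain by Rag set in pDC and 1 for date by strain in moDC. With no filter they were 3 for strain in moDC, 1 for strain in Rag1-/- pDC and 2 for strain by Rag set in pDC. With no sort date term the strain counts were 1 in monocytes, 1 in moDC, 4 in cDC2 and 2 in cDC1, 0 for both differences from cDC1, and 12 and 4 for cDC1 and moDC against cDC2. Within single dates they were 0 in cDC1 on 01.05.2016, 5 and 7 in cDC2 on 01.05.2016 and 10.26.2015, and 1 in moDC on 10.26.2015, and a date term gave 10 for strain in Rag1-/- pDC, and 0 as a term within each cell type, chosen after seeing the data. Fitted alone, cDC1 gave 16, cDC2 24, pDC 5 and Rag1-/- pDC 0.

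Without the 02.02.2015 libraries the counts were 0 for strain in Rag1-/- pDC, 2 for moDC against cDC2 and 30 for pDC against cDC2 in Rag1-/-, 5, 2 and 1 between the Rag sets in cDC1, cDC2 and moDC, and 1 and 0 for strain by Rag set in moDC and pDC. Without moDC NOD replicate 1 and monocyte B6g7 replicates 1 and 2 there were 13 for strain in moDC. Without the Rag-sufficient libraries of 10.26.2015 there were 4 and 0 between the Rag sets in cDC1 and cDC2, and without those of 01.05.2016 there were 15 and 12 in cDC2 and moDC. These alternatives were chosen after seeing the data, and the cause of the moves was not tested.

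Leaving out 1 library at a time gave 3 to 6 calls for strain in cDC1 and in moDC, 3 to 15 in monocytes and 0 to 25 in Rag1-/- pDC. It gave 3 to 7 for strain in cDC2 against cDC1, 1 to 3 in moDC against cDC1, 0 to 1 in cDC2 against moDC, 0 to 1 for date by strain in moDC, 10 to 26 for moDC against cDC2, and 11 to 32 for pDC against cDC2 in Rag1-/-. Between the Rag sets it gave 6 to 14 in cDC1, 1 to 7 in cDC2 and 17 to 34 in pDC, and 0 to 12 for strain by Rag set in pDC.

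The labels do not say whether replicate numbers pair the libraries, and the correlations of deviations do not settle it. Of 34 pairs between strains, deviations correlated by -0.648 to 0.568, 19 over 0.1 and 17 best with their own number. Of 52 pairs between cell types, they correlated by -0.501 to 0.63, 34 over 0.1 and 24 best with their own number. With the replicate number as a block there were 3 calls for strain in cDC1, 0 for strain in Rag1-/- pDC and 30 for pDC against cDC2 in Rag1-/-. No paired analysis was possible because the numbers are shared by different dates or sets for the date, Rag set and interaction results.

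In 7 cases a member was called in 1 direction and had the other sign in the model as reported or under an alternative. Without scaling they were Cenpa in cDC1 against cDC2 (-0.2495), Cdt1 between dates in cDC1 (0.1454) and cDC2 (0.0374), E2f1 between dates in cDC2 (0.4163) and Mki67 between dates in moDC (0.06847), of which Cenpa and E2f1 were called only without scaling. Pcna was 0.7195 between the Rag sets in cDC1 without 10.26.2015, where alone it was called, and 0.66 for pDC against cDC2 of 01.05.2016. Depth limits the pDC values most, where several members had under 10 counts.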
